A study of Mus musculus with 23 samples.

Results

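The genes described here are 9 transcripts of tumor macrophages: the growth factor Csf1, its receptor Csf1r, the surface receptors Adgre1, Mrc1 and Cd163, the transcription factor Maf, and C1qa, C1qb and C1qc, which encode the subunits of the complement component C1q. They were chosen by name from the 47643 gene identifiers of the deposited tables, and all 9 were found and passed the filter on low values in every comparison. The tables hold 23 libraries of mammary tumors from female mice that all carried the polyoma virus middle T oncogene (PyMT) as a transgene on a C57BL/6 background. The IL-38 KO allele came from a C57BL/6N strain that was crossed in. The promoter that drives the transgene is not given in the sources used here. In the neutralization experiment, PyMT WT mice received IgG1 isotype control (the IgG group, n = 5) or antibodies that neutralize IL-38 (anti-IL-38, n = 6), at 100 µg once a week for 5 weeks, starting when the first tumor measured 0.6 cm. In the second experiment, treatment began at 13 weeks of age and also ran for 5 weeks, with 500 µg of antibody first and 200 µg thereafter, and tumors came from WT mice with isotype IgG (WT_IgG, n = 4), from IL-38 KO mice with isotype IgG (KO_IgG, n = 4) and from IL-38 KO mice with an antibody that blocks the γδ T-cell receptor (KO_gdTCR, n = 4). Both experiments asked how tumors change when the cytokine IL-38 is blocked or missing, and the second also asked what changes when γδ T-cell receptor signaling is then blocked. RNA was taken from dissociated whole tumors, so that a lower value for a macrophage transcript can mean fewer macrophages or less of that RNA in each of them, which cannot be told apart.

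Macrophages depend on signals through the CSF1 receptor for survival and proliferation, and CSF1 is made by stromal and epithelial cells as well as by macrophages. The surface proteins encoded by Adgre1, Mrc1 and Cd163 are used to tell macrophages and their states from other myeloid cells, and MAF is a transcription factor of differentiated resident macrophages. C1q opens the classical complement pathway by binding antibody complexes or dying cells, and its 3 chains assemble into 1 molecule, with macrophages as a main source in tissues.

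Levels are given as CPM, the reads of a gene per 1000000 reads counted on genes in the same library. These totals ranged from 6273049 to 15879164 reads, and Il1f10, which encodes IL-38, had 0 reads in all 23 libraries, so that neither the knockout nor the neutralization could be checked on that transcript. The labelled tissue was checked on luminal epithelial markers, whose 8 genes summed to between 1459 and 3849 CPM in every library. A set of 5 libraries stood apart from the other 18, namely all 4 of the KO_gdTCR group and KO_IgG replicate 4. In these 5, processed pseudogenes took 1.31% to 1.98% of the reads (0.0943% to 0.191% in the other 18) and Gm42418, a transcript that overlaps ribosomal RNA sequence, took 11.3% to 20.1% (2.62% to 5.70%). Their totals were also lower, at 6273049 to 8794202 reads. KO_IgG replicate 4 enters the knockout, γδ and pooled comparisons, and the fold changes given there for the 9 genes are also given without it. What these library differences contribute to the values below was not tested, and for KO_gdTCR tumors the treatment and these differences cannot be told apart.

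The promoters of C1qb, C1qc and Mrc1 are shown because these genes, which macrophages all express, differed in how far their levels stood apart between groups. RefSeq sequence of GRCm38.p6 was at hand for 5 of the 9 members, and each line gives the 250 bases before the annotated start on the strand of the gene, 5′ to 3′. Both strands were searched for GAGGAA, the core of sites bound by PU.1 (the product of Spi1), for TGCTGA, a part of the sites bound by Maf proteins, and for TATAAA, the TATA box. Capitals mark every match, and TTCCTC is GAGGAA read on the other strand.
C1qb, GRCm38.p6, chr4:136886201-136886450, minus strand: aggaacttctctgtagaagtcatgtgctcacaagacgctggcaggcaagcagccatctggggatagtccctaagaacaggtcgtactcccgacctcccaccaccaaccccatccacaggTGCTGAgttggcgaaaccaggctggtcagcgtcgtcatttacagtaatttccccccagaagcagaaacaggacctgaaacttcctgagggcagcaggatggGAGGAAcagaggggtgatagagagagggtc
C1qc, GRCm38.p6, chr4:136892915-136893164, minus strand: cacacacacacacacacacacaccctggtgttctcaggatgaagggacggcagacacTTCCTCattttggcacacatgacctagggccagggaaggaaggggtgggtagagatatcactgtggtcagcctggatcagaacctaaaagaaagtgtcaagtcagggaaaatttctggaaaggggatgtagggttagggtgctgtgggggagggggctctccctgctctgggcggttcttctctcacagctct
Mrc1, GRCm38.p6, chr2:14229164-14229413, plus strand: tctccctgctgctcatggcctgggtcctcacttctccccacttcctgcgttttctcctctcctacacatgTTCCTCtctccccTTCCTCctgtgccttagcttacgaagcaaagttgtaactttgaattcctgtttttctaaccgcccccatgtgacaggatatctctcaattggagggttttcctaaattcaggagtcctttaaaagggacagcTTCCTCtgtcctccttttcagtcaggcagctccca
GAGGAA began at base -30 of the C1qb promoter, counted from the start, at -193 of that of C1qc, and at -180, -167 and -35 of that of Mrc1. TGCTGA was found at -131 in C1qb and in neither of the other windows, and TATAAA in none of them. The promoters of Csf1 and Cd163 held none of the 3 motifs. Of 32536 mouse promoters of the same length, 23.4% held GAGGAA, 16.1% TGCTGA and 12.3% TATAAA, so such matches are common.

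By group means, the ligand and its receptor ran in opposite order. Csf1 was read at 45.5, 20.4, 53.8, 33.7 and 21.4 CPM in IgG replicates 1 to 5 and at 27.3 to 63.8 CPM (median 37.4) in the 6 anti-IL-38 tumors. It was read at 41.8, 33.7, 48.6 and 49.8 CPM in WT_IgG, at 82.0, 54.7, 52.8 and 45.0 CPM in KO_IgG and at 43.6, 82.1, 58.0 and 54.4 CPM in KO_gdTCR. The 5 groups overlapped, and no 2 groups next to each other in the order of their means differed by more than the larger of their SDs. Csf1r was read at 915, 871, 603, 707 and 833.6 CPM in IgG and at 524 to 785 CPM (median 609.7) in anti-IL-38. Its levels were 606, 710, 571 and 485 CPM in WT_IgG, 370.1, 393, 552 and 157 CPM in KO_IgG, and 96.9, 105, 132 and 179 CPM in KO_gdTCR. The receptor was therefore highest in the IgG tumors and lowest in the KO_gdTCR tumors, with a 9.44-fold span between the highest and the lowest library. The lowest KO_IgG value, that of replicate 4, lay inside the range of the KO_gdTCR group, and the other 3 KO_IgG tumors lay above it. Of neighbours in the order of means, anti-IL-38 and WT_IgG differed by less than the larger SD (627 ± 98.0 and 593 ± 93.2 CPM, SD, n = 6 and 4).

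**Figure D1:**
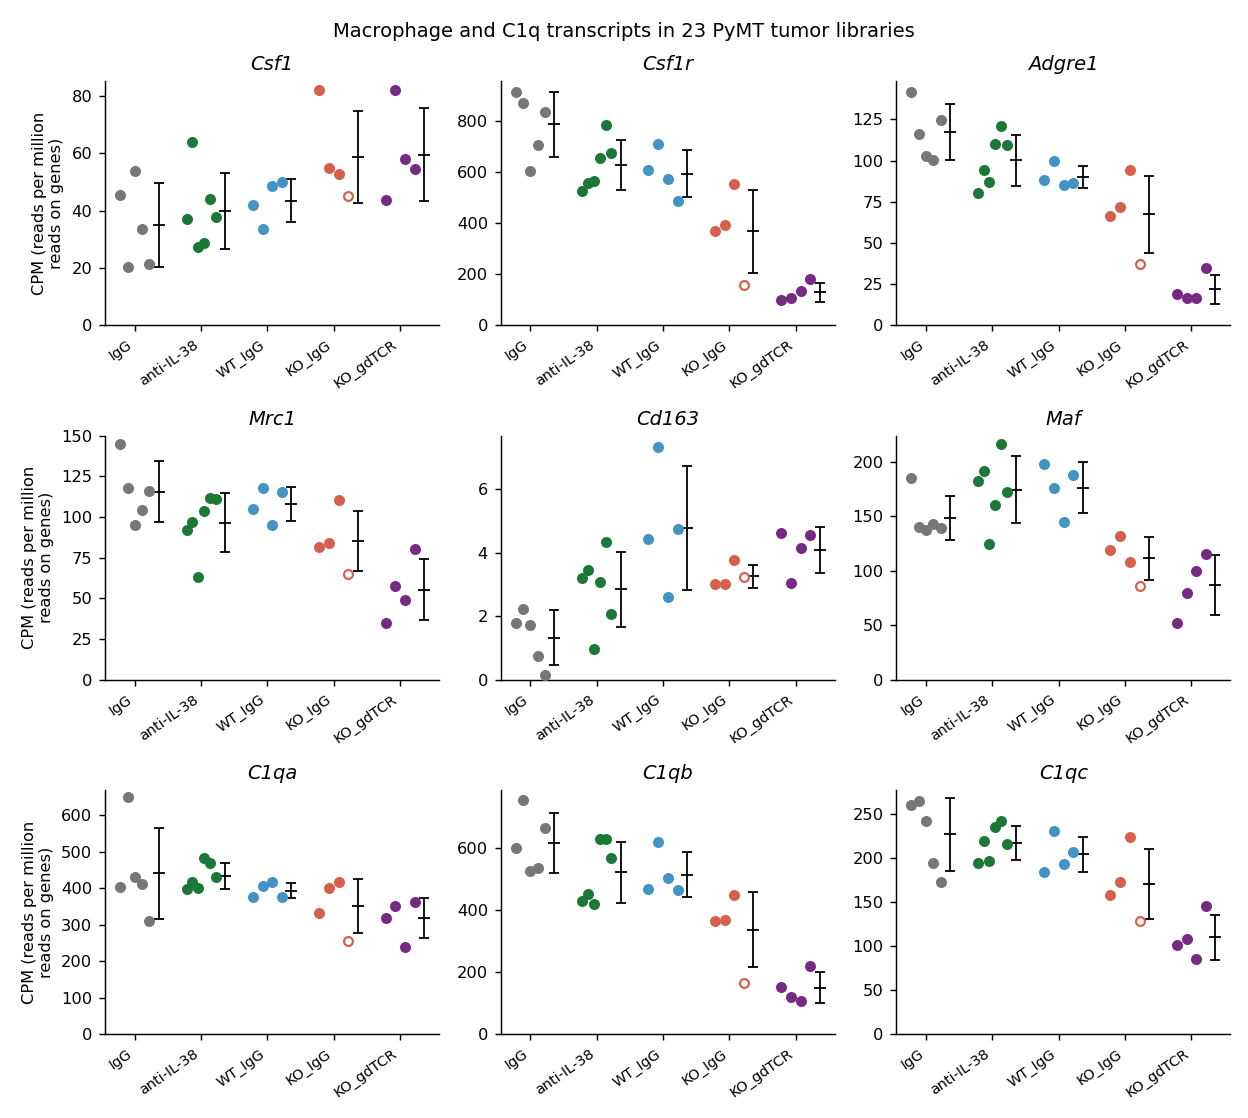
CPM of each of the 9 genes (vertical axes from 0, reads per 1000000 reads on genes) in every library of the 5 groups, with 1 point per tumor, the mean and SD as a bar beside the points, and KO_IgG replicate 4 drawn as an open circle. Csf1r and Adgre1 descend from the IgG to the KO_gdTCR group, C1qa stays at 239.8 to 649 CPM throughout, and the open circle lies with the KO_gdTCR tumors for Csf1r and C1qb.

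Adgre1 encodes the adhesion receptor that serves as the classical surface marker of mouse macrophages. It was read at 142, 116, 103, 101 and 125 CPM in IgG, at 80.5 to 121 CPM (median 102) in anti-IL-38, at 88.5, 99.6, 85.4 and 86.7 CPM in WT_IgG and at 66.2, 72.1, 94.1 and 37.1 CPM in KO_IgG. In KO_gdTCR it was read at 19.1, 16.7, 16.4 and 34.8 CPM, below every other library, KO_IgG replicate 4 included. By normalized counts, 4.98% of all genes lay wholly lower in KO_gdTCR than in KO_IgG. Mrc1, which encodes the mannose receptor CD206, spanned less: 95.1 to 145 CPM in IgG, 63.0 to 112 in anti-IL-38, 95.1 to 118 in WT_IgG, 65.2 to 110.3 in KO_IgG and 34.7 to 80.2 in KO_gdTCR. KO_IgG replicate 4 held the lowest Mrc1 level of its group and lay within the range of the KO_gdTCR tumors, so the 2 groups overlapped.

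Cd163, the receptor for haptoglobin and hemoglobin complexes, was the least abundant member and rested on few reads, from 2 to 94 per library. Its levels were 1.79, 2.24, 1.71, 0.747 and 0.149 CPM in IgG, the last from 2 reads, and 0.950 to 4.33 CPM (median 3.14) in anti-IL-38. They were 4.44, 7.33, 2.61 and 4.74 CPM in WT_IgG, 3.01, 3.01, 3.78 and 3.25 CPM in KO_IgG, and 4.62, 3.04, 4.14 and 4.55 CPM in KO_gdTCR. The IgG tumors were the lowest group for this gene and the highest for Csf1r, Adgre1 and Mrc1, and KO_IgG replicate 4 did not stand out. Maf was read at 185, 139.9, 137, 143 and 139 CPM in IgG and at 124 to 216 CPM (median 178) in anti-IL-38. It was read at 198, 176, 144 and 188 CPM in WT_IgG, at 119, 132, 108 and 86.1 CPM in KO_IgG and at 52.4, 80.0, 99.95 and 116 CPM in KO_gdTCR. Every KO_IgG tumor lay below every WT_IgG tumor for Maf, as did 3.41% of all genes on normalized counts. KO_IgG and KO_gdTCR overlapped for Maf and differed by less than the larger SD (111 ± 19.5 and 87.0 ± 27.3 CPM, SD, n = 4 each).

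The C1q subunits did not share 1 pattern. C1qa was read at 402, 649, 431, 410.3 and 309.97 CPM in IgG, at 398 to 482 CPM (median 425) in anti-IL-38 and at 376, 405, 416 and 375 CPM in WT_IgG. In the knockout it was read at 332, 401, 418 and 256 CPM in KO_IgG and at 318, 351, 239.8 and 362 CPM in KO_gdTCR, so that the KO_gdTCR tumors lay below those of WT_IgG and anti-IL-38 and all other pairs of groups overlapped. No share over all genes was computed for these separations. The totals behind CPM include Gm42418, which took 11.6% to 20.1% of reads in KO_gdTCR and 3.58% to 5.70% in WT_IgG. What this contributes to the separations was not tested. C1qb was read at 599, 754, 524, 534 and 665 CPM in IgG and at 419 to 629.6 CPM (median 509.8) in anti-IL-38. Its levels were 468, 619, 504 and 463 CPM in WT_IgG, 365, 367, 448 and 165 CPM in KO_IgG, and 151, 119, 107 and 220.03 CPM in KO_gdTCR. The 4 KO_IgG tumors lay below the 4 WT_IgG tumors on this scale, and only replicate 4 of them reached into the range of the KO_gdTCR tumors. On normalized counts KO_IgG and WT_IgG overlapped for C1qb (KO_IgG up to 5374, WT_IgG from 5354), and 3.41% of all genes lay wholly lower in KO_IgG. C1qc lay between these patterns, at 173 to 265 CPM in IgG, 195 to 242 in anti-IL-38, 185 to 231 in WT_IgG, 129 to 224 in KO_IgG and 84.8 to 146 in KO_gdTCR.

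Neutralizing IL-38 shifted none of the 9 genes past the threshold. Log2 fold changes are differences of log2(normalized count + 1), positive where the first group was higher, and adjusted p-values are from limma over all genes tested with Benjamini-Hochberg adjustment. The largest difference was that of Cd163, with a log2 fold change of 1.35 (SE 0.57, adjusted p = 0.445, limma), followed by Csf1 at 0.28 (SE 0.27), Maf at 0.27 (SE 0.12, adjusted p = 0.460, limma) and Csf1r at -0.27 (SE 0.14, adjusted p = 0.488, limma). Mrc1, C1qb and Adgre1 had log2 fold changes of -0.22, -0.20 and -0.18, and C1qa and C1qc lay at 0.07 and 0.00. All 9 overlapped between the groups, as did most genes (0.4% lay wholly higher and 0.644% wholly lower). Limma called 0 of 16002 genes here (0%), where 897 genes had an unadjusted p below 0.05 with a higher and 785 with a lower level (5.61% and 4.91%), edgeR called 0 (909 and 805 at an unadjusted p below 0.05) and DESeq2 called 75 (0.469%), with 0 members among them. The value of Cd163 ranged from 0.80 to 1.63 when single tumors were left out, the lowest without IgG replicate 5, which held 2 reads.

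In IL-38 KO tumors against WT tumors, 8 of the 9 genes had negative log2 fold changes and 0 were called by limma. Limma called 1 gene of 16563 (0.00604%), with 2010 at an unadjusted p below 0.05, DESeq2 called 305 (1.84%), and edgeR called 0, with 1469 higher and 750 lower at an unadjusted p below 0.05. Maf had the smallest adjusted p of the members, with a log2 fold change of -0.65 (SE 0.16, adjusted p = 0.210, limma), and was the 1 member called by DESeq2 (adjusted p = 0.0148), which called 0.507% of genes lower. It was the only member whose groups did not overlap on the normalized scale, where 3.41% of genes lay wholly lower. Csf1r and C1qb followed at -0.78 (SE 0.31, adjusted p = 0.360, limma) and -0.67 (SE 0.27, adjusted p = 0.362, limma), and Csf1 was the gene with the opposite sign at 0.44 (SE 0.19, adjusted p = 0.401, limma). Adgre1, Cd163, Mrc1, C1qc and C1qa had log2 fold changes of -0.47, -0.43, -0.34, -0.26 and -0.16.

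Without KO_IgG replicate 4, limma called 7 of 16225 genes (0.0431%) and again 0 members. Maf then stood at -0.54 (SE 0.14, adjusted p = 0.141, limma) with groups that still did not overlap, where 5.45% of genes lay wholly lower, and DESeq2 called it again (adjusted p = 0.0248), beside 0.703% of genes called lower. The value of Csf1r moved from -0.78 to -0.43, that of C1qb from -0.67 to -0.36, that of Adgre1 from -0.47 to -0.22, that of C1qc from -0.26 to -0.14 and that of C1qa from -0.16 to -0.02. Each of these 5 was over 1.5 times smaller without that tumor. Csf1 went from 0.44 to 0.54, and its 3 KO_IgG values then lay above all 4 WT_IgG values (adjusted p = 0.235, limma), as did those of 7.43% of genes, while Cd163 kept a value of -0.44 and Mrc1 had one of -0.23.

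**Figure D2:**
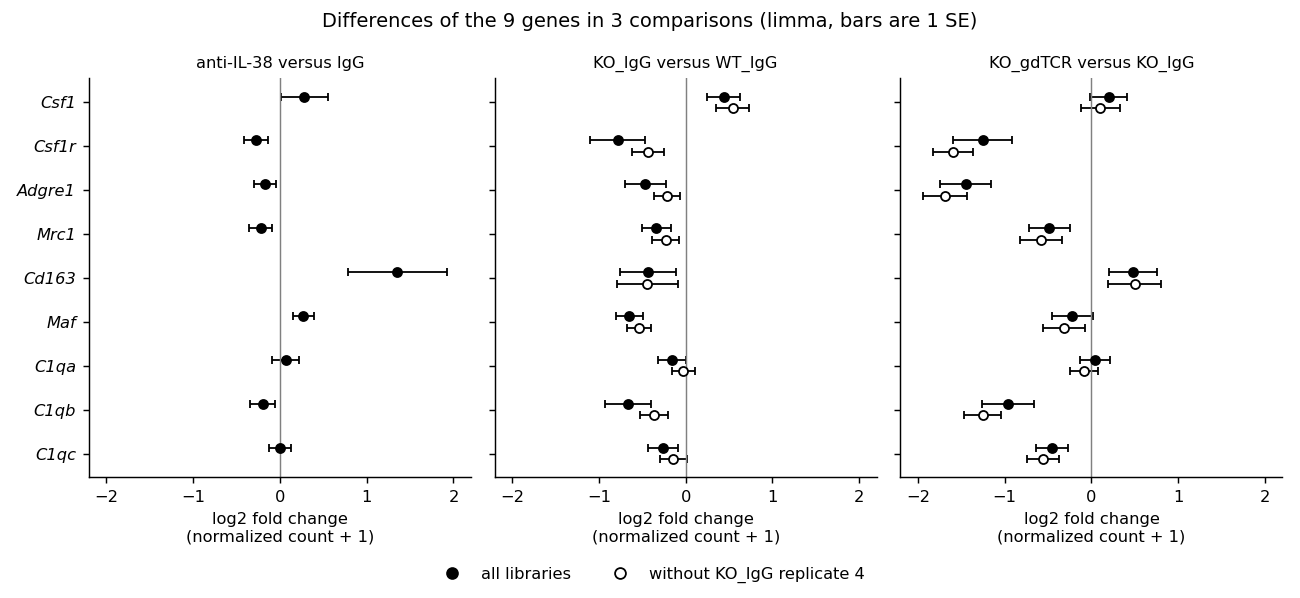
Log2 fold changes of the 9 genes in 3 comparisons (horizontal axes, log2 of normalized count + 1), with filled circles for all libraries, open circles without KO_IgG replicate 4, and bars of 1 SE from limma. For KO_gdTCR against KO_IgG the open circles of Csf1r, Adgre1 and C1qb lie at -1.60, -1.69 and -1.25, farther from 0 than the filled ones, and for KO_IgG against WT_IgG the open circles of these 3 genes lie nearer to 0.

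The comparison of KO_gdTCR with KO_IgG tumors showed the widest separation among these genes, led by Adgre1, Csf1r and C1qb. Treatment and the library differences described above cannot be told apart in it. The normalized counts of Adgre1 were 612 ± 212 in KO_IgG and 222 ± 78.1 in KO_gdTCR (SD, n = 4 each), a log2 fold change of -1.45 (SE 0.29, adjusted p = 0.0657, limma), and it was the 1 member whose groups did not overlap, where 4.98% of genes lay wholly lower. Csf1r was at 3343 ± 1482 and 1318 ± 357 normalized counts (log2 fold change -1.25, SE 0.34, adjusted p = 0.0699, limma), and C1qb at 3053 ± 1075 and 1524 ± 444 (log2 fold change -0.96, SE 0.30, adjusted p = 0.0933, limma). C1qc had a log2 fold change of -0.46 (SE 0.19, adjusted p = 0.186, limma) and Mrc1 one of -0.48 (adjusted p = 0.263, limma), while Maf lay at -0.22, Csf1 at 0.20 and Cd163 at 0.48. C1qa, at 3200.5 ± 638 and 3249.8 ± 359 normalized counts, had a log2 fold change of 0.04 (SE 0.17, adjusted p = 0.927, limma). With all 8 libraries limma called 0 of 16481 genes (0%) although 3570 had an unadjusted p below 0.05, edgeR called 0 as well, with 1348 higher and 1730 lower at an unadjusted p below 0.05, and DESeq2 called 1033 (6.27%), 609 of them lower (3.7%). Adgre1 (adjusted p = 0.000521, DESeq2), Csf1r (adjusted p = 0.00339, DESeq2) and C1qb (adjusted p = 0.0218, DESeq2) were among the latter.

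Without KO_IgG replicate 4, these 3 genes passed the threshold in limma, edgeR and DESeq2. In this fit treatment and library differences coincide. Processed pseudogenes took 1.31% to 1.98% of the reads in KO_gdTCR and 0.167% to 0.191% in the KO_IgG libraries kept. Adgre1 fell by 1.69 on the log2 scale (SE 0.25, adjusted p = 0.000768, limma), Csf1r fell by 1.60 (SE 0.23, adjusted p = 0.000639, limma) and C1qb fell by 1.25 (SE 0.21, adjusted p = 0.00203, limma), each with groups that did not overlap, as 10.8% of genes lay wholly lower. In the same fit limma called 2357 of 16480 genes (14.3%), 800 of them lower (4.85%) and 1557 higher (9.45%), edgeR called 14.4% and DESeq2 17.4%. C1qc had a log2 fold change of -0.56 (SE 0.18, adjusted p = 0.0682, limma) and was called lower by DESeq2 (adjusted p = 0.0414). Mrc1 had a value of -0.58 (SE 0.24, adjusted p = 0.147, limma), Cd163 of 0.50 (adjusted p = 0.349, limma), Maf of -0.32 (adjusted p = 0.453, limma) and Csf1 of 0.10 (adjusted p = 0.824, limma). C1qa changed sign to -0.09 (SE 0.16, adjusted p = 0.787, limma), and its difference stayed within 1 SE of 0 in both fits.

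Tumors in which IL-38 was inhibited in either way were also compared with all controls, 10 against 9. Limma called 0 of 16352 genes (0%), with 1725 at an unadjusted p below 0.05, and 0 members, edgeR called 1 and DESeq2 70 (0.428%). Mrc1 had the smallest adjusted p of the members, with a log2 fold change of -0.26 (SE 0.12, adjusted p = 0.452, limma), and Csf1r and C1qb lay at -0.45 and -0.37. Without KO_IgG replicate 4 these 3 values were -0.20, -0.27 and -0.21 (adjusted p = 0.537, 0.591 and 0.622, limma), those of Csf1r and C1qb over 1.5 times smaller. Whether antibody and knockout differed in their effect was tested as an interaction term over the 19 libraries, in which 1 gene was called (0.00612%) and 0 members were. For Maf the antibody effect exceeded the knockout effect by 0.92 (SE 0.19, adjusted p = 0.362, limma), and by 0.81 without KO_IgG replicate 4 (adjusted p = 0.486, limma). The experiments differed in the isotype antibody, the dose and the start of treatment, and these cannot be told apart from a difference between antibody and knockout.

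Within a library, the ratio of reads between genes does not depend on the scaling of that library, and such ratios showed unequal levels of the C1q subunits. They can still depend on the library differences described above, which for KO_gdTCR tumors cannot be told apart from treatment. These ratios were chosen after the values were seen and are given without a test. For each read of C1qa there were 1.46 ± 0.401 reads of C1qb in IgG tumors, 1.19 ± 0.139 in anti-IL-38 and 1.305 ± 0.150 in WT_IgG (SD, n = 5, 6 and 4). The ratio was 1.10, 0.916, 1.07 and 0.646 in the 4 KO_IgG tumors and 0.474, 0.341, 0.446 and 0.608 in the 4 KO_gdTCR tumors. All 4 KO_gdTCR tumors thus lay below all others, and KO_IgG replicate 4 lay next above them, with 1.03 ± 0.0992 in KO_IgG without it. The ratio of C1qc to C1qa was 0.346 ± 0.0425 in KO_gdTCR (SD, n = 4) and between 0.408 and 0.646 in all other libraries, and here KO_IgG replicate 4, at 0.503, lay with the latter. The ratio of Adgre1 to Mrc1 was 0.402 ± 0.115 in KO_gdTCR and 0.569 in KO_IgG replicate 4, against 0.750 to 1.38 in the other 18 libraries. For each read of Adgre1 there were 6.13 ± 1.38 reads of Csf1r in KO_gdTCR, from 5.07 to 8.04, and 6.35 ± 0.583 in the 18, from 5.46 to 7.51 (SD, n = 4 and 18). KO_IgG replicate 4, at 4.23, had the lowest value of this ratio in all 23 libraries.

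**Figure D3:**
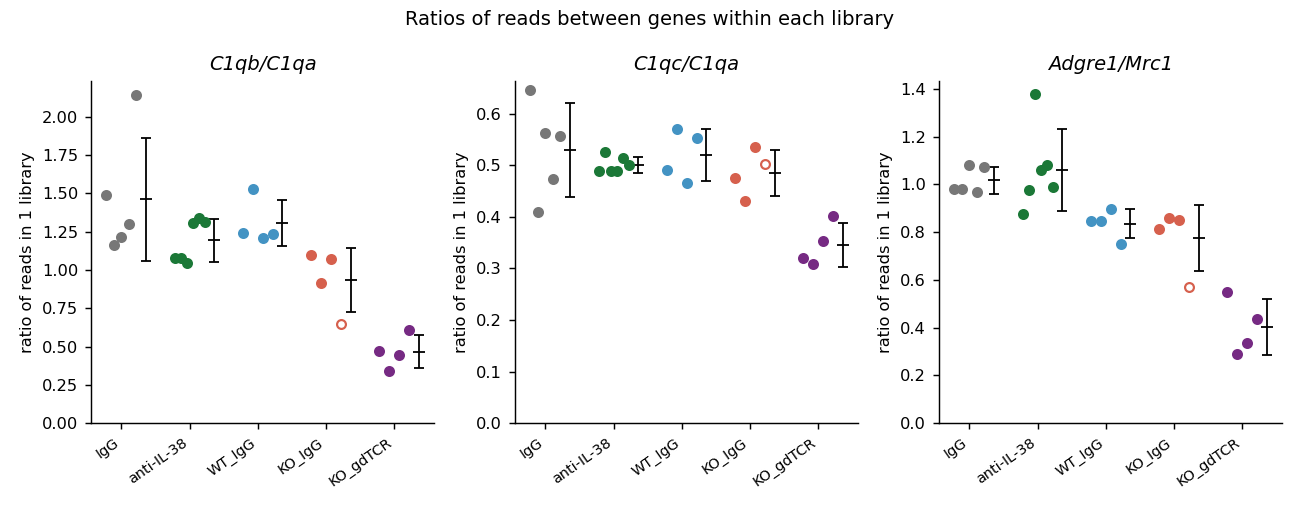
Ratio of reads of C1qb to C1qa, C1qc to C1qa and Adgre1 to Mrc1 within each library (vertical axes from 0, no unit), by group, with the mean and SD as a bar and KO_IgG replicate 4 as an open circle. The KO_gdTCR tumors have the lowest values in all 3 panels, and the open circle is near them for C1qb/C1qa (0.646) and Adgre1/Mrc1 (0.569) and among the other tumors for C1qc/C1qa (0.503).

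Other genes of macrophages were taken as lists, whose choice, like that of the members, was made with earlier results of these data known. KO_gdTCR was compared with KO_IgG without replicate 4, the fit in which treatment and library differences coincide. It called 4.85% of all genes lower and 9.45% higher, and the median log2 fold change over all genes was 0.01. The lipid-associated macrophage list had 6 of 9 genes called lower and a median log2 fold change of -2.96. The called genes with the smallest p were Lgals3, which encodes galectin-3 (log2 fold change -4.01), Gpnmb, a lysosomal glycoprotein (-5.92), Fabp5, a fatty acid chaperone (-2.96), and Trem2, a lipid receptor (-3.40). Of 15 pan-macrophage and monocyte genes, 9 were called lower and 1 higher, with a median of -1.81, and Lyz2, the lysozyme of macrophages and neutrophils, fell by 5.24. In the list of the CSF axis 2 of 7 genes were called lower, Csf2rb (-4.32) and Csf2ra (-1.02), which encode the chains of the GM-CSF receptor. The macrophage transcription factors were split, with Spi1 and Irf8 called lower (-2.70 and -1.41), Bhlhe41 called higher (0.82) and a median of -0.08 over 10 genes. The scavenger and lectin receptor genes were also split, with Msr1 and Chil3 called lower (-3.03 and -4.06), Cbr2 called higher (0.99) and a median of 0.14 over 11 tested genes. With replicate 4 included, limma called 0 genes of any of these lists, and their medians were -2.31, -1.29, -0.56, -0.08 and -0.04.

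Around C1q, the complement genes moved unequally in the same fit, in which 4.85% of all genes were called lower and 9.45% higher. Of 10 further components and proteases tested, 1 was called lower, Cfp, which encodes properdin and fell by 2.54 on the log2 scale, and the median was 0.16. Of 6 complement receptors 4 were called lower, namely Itgax (-3.04), C3ar1 (-2.77), Cd93 (-1.70) and C5ar1 (-1.86), with a median of -1.78. Among 8 complement regulators 0 were called (median -0.00115), with Cd59a at 0.58 (adjusted p = 0.221, limma) and Clu at 0.30 (adjusted p = 0.549, limma). With replicate 4 included the medians of the 3 lists were 0.22, -1.47 and -0.01, with 0 genes called.

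The same lists held 0 called genes in the other comparisons. In IL-38 KO against WT tumors the medians were -0.93 for lipid-associated macrophage genes and -0.73 for pan-macrophage genes, and -0.27 and -0.30 without KO_IgG replicate 4. Arg1 of the scavenger and lectin receptor list, an enzyme of arginine catabolism, had a log2 fold change of -1.13 there (SE 0.21, adjusted p = 0.156, limma). Without replicate 4 it had one of -1.03 (adjusted p = 0.0930, limma). Its KO_IgG values all lay below those of WT_IgG, as did those of 3.41% of genes, and of 5.45% without replicate 4. Under anti-IL-38 the medians were -0.36 and -0.28, with Trem2 at -0.47 (SE 0.14, adjusted p = 0.412, limma) and Mertk, a receptor for the uptake of dying cells, at -0.41 (SE 0.13, adjusted p = 0.417, limma). Among further components of complement, C4b had a log2 fold change of 1.86 under anti-IL-38 (SE 0.62, adjusted p = 0.418, limma). Median log2 fold changes of the complement receptors were -0.32 under anti-IL-38 and -0.53 in the knockout (-0.19 without KO_IgG replicate 4), and those of the regulators 0.54 and 0.21 (0.22).

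Markers of other cells were followed beside these results in KO_gdTCR against KO_IgG, where 4.85% of all genes were called lower and 9.45% higher without replicate 4. The 8 neutrophil markers summed to 231 to 312 CPM in KO_IgG without replicate 4, to 42.6 CPM in replicate 4 and to 8.93 to 37.2 CPM in KO_gdTCR. Most of the sum in KO_IgG without replicate 4 came from the single gene Mmp8. Without replicate 4, Mmp8 was the 1 gene of 5 tested that was called, at 2021 ± 403 normalized counts in KO_IgG and 13.5 ± 27.0 in KO_gdTCR (SD, n = 3 and 4), and Ly6g was at 0 in all KO_gdTCR tumors, as it was in KO_IgG replicate 4 and in the 6 anti-IL-38 tumors. Luminal epithelial markers summed to 2756 to 3132 CPM in KO_IgG without replicate 4, 2813 CPM in it and 2704 to 3658 CPM in KO_gdTCR, with Krt18 called higher by 0.69 (1 of 8), and the other epithelial list, basal and myoepithelial genes, had 0 of 6 called. T cell markers summed to 10.8 to 19.8 and 13.4 to 23.6 CPM (0 of 10 called), dendritic cell markers to 17.9 to 18.7 and 13.1 to 17.3 CPM (0 of 7) and B and plasma cell markers to 4.66 to 6.66 and 6.85 to 14.6 CPM, with Jchain called higher by 1.14 (1 of 3) and 57.4 CPM in replicate 4. Fibroblast (0 of 6), endothelial (0 of 6), adipocyte (0 of 5) and skeletal muscle markers (0 of 5) held 0 called genes, the last with summed levels of 73.7 to 379 and 61.3 to 728 CPM and 10.9 CPM in replicate 4.

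In IL-38 KO against WT tumors, 0 genes of these marker lists were called, with or without replicate 4. All 5 skeletal muscle markers had positive log2 fold changes, with a median of 2.26, and of 3.22 without replicate 4, where 5 of 5 had an unadjusted p below 0.05. They summed to 2.001 to 66.7 CPM in WT_IgG, 73.7 to 379 CPM in KO_IgG without replicate 4 and 10.9 CPM in it. All 5 adipocyte markers had negative values, with medians of -1.11 and -1.51, and sums of 121 to 225 CPM in WT_IgG, 34.6 to 86.9 CPM in KO_IgG without replicate 4 and 139 CPM in it. T cell markers were negative for 9 of 10 genes, with medians of -0.71 and -0.65 and sums, in the same order, of 16.4 to 33.1, 10.8 to 19.8 and 22.97 CPM. Dendritic cell markers had medians of -0.51 and -0.68 and sums of 24.1 to 30.03, 17.9 to 18.7 and 14.04 CPM. In this sum WT_IgG tumors lay above all KO_IgG tumors, and no share over all genes was computed for sums. The medians of the other 6 lists lay between -0.32 and 0.53, and between -0.26 and 0.24 without replicate 4.

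Under anti-IL-38, 0 genes of the marker lists were called as well. Luminal epithelial markers had positive log2 fold changes for 8 of 8 genes, with a median of 0.66, and summed to 1459 to 3007 CPM in IgG and 1976 to 3849 CPM in anti-IL-38. Fibroblast markers were positive for 6 of 6, with a median of 0.55 and sums of 1189.2 to 3981 and 1447 to 4428 CPM, and T cell markers for 9 of 10, with a median of 0.77 and sums of 9.31 to 22.3 and 8.78 to 19.3 CPM. Basal and myoepithelial markers had a median of 0.60 and sums of 92.0 to 371 and 78.3 to 1765 CPM. The groups overlapped in each of these sums. Neutrophil markers were negative for 6 of 6 genes tested, with a median of -0.25 and sums of 412 to 637 and 263 to 434 CPM. Most of these sums came from Mmp8, at 5317 ± 1195 normalized counts in IgG and 3863 ± 766 in anti-IL-38 (SD). The medians of the other 5 lists lay between -0.0245 and 0.27. What the other cell types contribute to the values of the 9 genes was not tested.

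Relations between the levels of members were computed across tumors. The 5 libraries named above form a cluster of their own, too small for a value within it. No correlation of the members' levels with each other over all 23 is therefore given unless group means were removed. Those over the other 18 were chosen after the data were seen. Among these 18, the mean log2(CPM + 1) of the C1q genes followed that of Csf1r (r = 0.784, permutation p = 7e-05, adjusted p = 0.000533; rho = 0.723, permutation p = 0.00098) and that of Adgre1 (r = 0.767, permutation p = 0.0002, adjusted p = 0.000533; rho = 0.783, permutation p = 0.00023), with p-values adjusted over 8 relations. C1qa followed C1qc (r = 0.741, permutation p = 0.00019, adjusted p = 0.000533; rho = 0.728, permutation p = 0.00098), and Csf1 ran against Csf1r (r = -0.668, permutation p = 0.00251, adjusted p = 0.00502; rho = -0.637, permutation p = 0.00538). All of these coefficients include differences between groups. With group means removed, over all 23 libraries, Csf1 and Csf1r had r = -0.0538 (permutation p = 0.811). The values were then 0.762 for C1q and Csf1r, 0.837 for C1q and Adgre1 and 0.795 for C1qa and C1qc. Values with group means removed still include KO_IgG replicate 4, at 157 CPM of Csf1r against 370.1 to 552 CPM in the rest of its group. What that library contributes to them was not tested. Among the 18, without the 2 libraries farthest from the median of the first gene, the 4 values were 0.675, 0.746, 0.694 and -0.534. For C1qb and C1qc the coefficient went from 0.650 (permutation p = 0.00381, adjusted p = 0.00610; rho = 0.562, permutation p = 0.0168) to 0.454 (permutation p = 0.0763) in this way, so that its call in the 18 libraries rests on those 2, and it was 0.737 over the 23 with group means removed. For C1qa and C1qb it went from 0.495 (permutation p = 0.0326, adjusted p = 0.0435; rho = 0.476, permutation p = 0.0471) to 0.688. No relation was detectable between Mrc1 and Cd163 (r = 0.145, permutation p = 0.559; rho = 0.135, permutation p = 0.593; 0.00113 without 2 libraries) or between Maf and Mrc1 (r = 0.447, permutation p = 0.0608, adjusted p = 0.0695; rho = 0.404, permutation p = 0.0972), although the last was 0.568 without 2 libraries (permutation p = 0.0190, adjusted p = 0.0304).

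The coefficients within each experiment rest on fewer tumors, and they were not tested against each other. Within the neutralization experiment alone, with 11 tumors, r was 0.591 for C1q and Csf1r (permutation p = 0.0528) and 0.553 for C1q and Adgre1 (permutation p = 0.0783). It was 0.757 for C1qa and C1qc (permutation p = 0.00379) and -0.374 for Csf1 and Csf1r (permutation p = 0.256). Only that of C1qa and C1qc passed after adjustment (adjusted p = 0.0303), and by rho it did not (rho = 0.682, permutation p = 0.0248, adjusted p = 0.150). Among the 7 tumors of WT_IgG and KO_IgG without replicate 4 the values of r, in the same order, were 0.910 (exact permutation p = 0.00516), 0.953 (exact permutation p = 0.00179), 0.676 (exact permutation p = 0.0903) and -0.893 (exact permutation p = 0.00437). These 7 include the difference between genotypes. Values of rho were 0.750, 0.857, 0.607 and -0.964, and only the last passed after adjustment (exact permutation p = 0.00278, adjusted p = 0.0222).

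**Figure D4:**
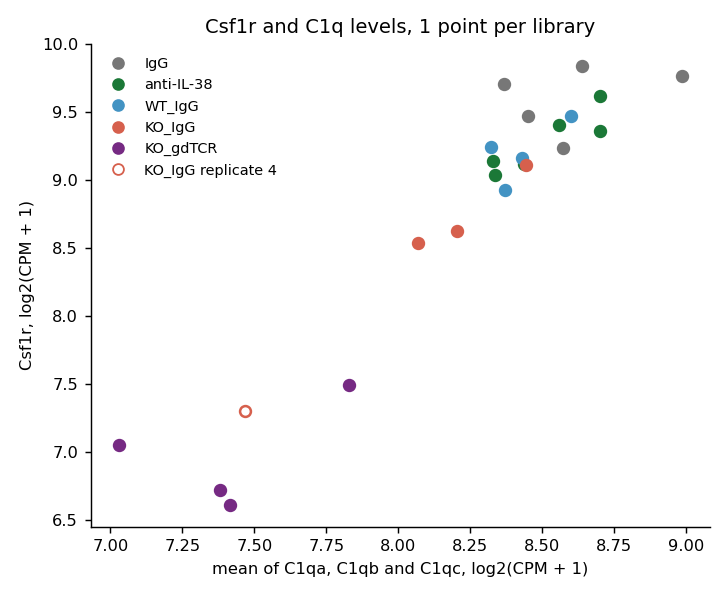
Csf1r (vertical axis) against the mean of C1qa, C1qb and C1qc (horizontal axis), both as log2(CPM + 1), with 1 point for each of 23 libraries, colored by group, and KO_IgG replicate 4 open. The 4 KO_gdTCR tumors and the open circle lie apart at the lower left, at 96.9 to 179 CPM of Csf1r, and the other 18 libraries lie at 370.1 to 915 CPM.

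The genes with the pattern most like each member were looked up among 11323 genes with a mean of at least 5 CPM, as Pearson's r of log2(CPM + 1) over the 23 libraries, which share the split into 5 and 18. Those nearest to Csf1r were Spi1, which encodes the macrophage transcription factor PU.1 (r = 0.993, and 0.943 over the 18 libraries), Gstm1 (0.993 and 0.967) and Il2rg (0.992 and 0.962). Adgre1 was nearest to Pilra (0.993 and 0.941), Tnfrsf26 and Itgb2, and C1qb to Lsp1 (0.985 and 0.868), Slc36a2 and Pld4. C1qc was nearest to Ms4a7 (0.970 and 0.852), a membrane protein of macrophages, Tlr7 and Cnppd1. C1qa had lower coefficients, with Mfn2 (0.848 and 0.680), Apoe (0.824 and 0.759) and Gpr65 (0.821 and 0.625). For Mrc1 they were Mpp1 (0.942 and 0.858), Osbpl11 and Arhgap30, for Maf Wdfy4 (0.901 and 0.695), Hcst and Rab3il1, for Cd163 Prpf18 (0.823 and 0.834), Pink1 and Lrrc75b, and for Csf1 Rnf130 (0.923 and 0.927), Hs3st3b1 and Ccn2, a secreted matrix-associated factor.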

How the data were processed

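RNA of 23 dissociated PyMT tumors was made into 3′ mRNA libraries (QuantSeq) and, per the methods of the study, processed with the BlueBee pipeline. The submitters' processing notes name STAR, HTSeq, DESeq2 and the build GRCm39, without versions. The deposited values are normalized counts, a signal that the authors made by dividing the reads of each gene by 1 size factor per library, computed separately for a table of 19 libraries (IgG, anti-IL-38, WT_IgG and KO_IgG) and for one of 8 (KO_IgG and KO_gdTCR). Since 1 read has 1 fixed value in each library, whole reads could be recovered, within 0.0001%, for 100% of values. In 1 WT_IgG library that value lay near 1. The 4 KO_IgG libraries had the same reads in both tables, and comparisons were made within a table. CPM were computed from these reads. Of 47643 identifiers 47224 had a symbol.

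The tests used limma 3.58.1 in R 4.3.3 (moderated, two-sided) on log2(normalized count + 1), which understates changes of low genes, for genes with a mean of at least 5, with a threshold of 0.05 on the Benjamini-Hochberg adjusted p over all genes tested. Count tests on the reads (edgeR 4.0.16, quasi-likelihood, and DESeq2 1.42.0), other pseudocounts, filters and scalings, a replicate block and leaving out each tumor were alternatives, and the scripts were tested on simulated data. Correlations used scipy 1.17.1 with 100000 permutations, or all of them under 10 tumors. The members and lists were chosen with earlier results of these data known. Named genes were the members, checks of the libraries, per list and comparison up to 4 called genes or else the 2 with the smallest p, and the 3 genes nearest to each member. The labels give separate samples, not stated to be separate mice, so p-values measure the spread between these samples. Counts of 43 library pairs within groups differed by more than sampling noise. With 0 reads, 3 reads give the upper limit, 0.189 to 0.478 CPM by library, which covers counting error only. Promoters are RefSeq sequences of GRCm38.p6, matched by symbol.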

Additional observations from a re-analysis of the deposited data

Results flagged for a closer look

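Dixon's test at the 95% level was applied to 70 sets of 4 to 10 samples, where chance marks about 1 in 20, and 4 tumors stood out. Adgre1 was at 34.8 CPM in KO_gdTCR replicate 4, against 16.4 to 19.1 CPM in the other 3 tumors of that group. Maf was at 185 CPM in IgG replicate 1, against 137 to 143 CPM in the other 4. The ratio of C1qb to C1qa reads was 1.53 in WT_IgG replicate 2, against 1.21 to 1.24 in the other 3. Processed pseudogenes took 1.46% of the reads in KO_IgG replicate 4, against 0.167% to 0.191% in the other 3 libraries. Results with and without that library are given above.

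For Cd163 the log2 fold change was 1.35 under anti-IL-38 and -0.43 in the knockout, neither of them past the threshold. Every anti-IL-38 tumor lay above the mean of the IgG tumors and every KO_IgG tumor below the mean of the WT_IgG tumors, on the scale of log2(normalized count + 1). On that of normalized counts, looked at after the values were seen, this did not hold, since anti-IL-38 replicate 3, at 13.9, lay below the IgG mean of 16.7. Nor did it hold on the log2 scale without IgG replicate 5, the library with 2 reads, where the IgG mean was 4.32 and anti-IL-38 replicate 3 was at 3.89. The antibody effect exceeded the knockout effect by 1.79 (SE 0.75, adjusted p = 0.597, limma interaction term), which did not pass the threshold. Without KO_IgG replicate 4 the difference was 1.80 (adjusted p = 0.622, limma), and the gene rests on 2 to 94 reads per library. The experiments also differed in isotype antibody, dose and start of treatment, which cannot be told apart from this difference.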

How the results depend on the processing

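Of 801 values of single members under alternative settings, 764 kept their direction and their side of the threshold, 22 changed sign and 15 passed the threshold where the reported value did not. Under anti-IL-38, DESeq2 called 75 genes, the replicate block 1, and leaving out single tumors gave 0 to 6, the highest without IgG replicate 3. In the knockout against WT, edgeR called 0, DESeq2 305 and the replicate block 0, leaving out single tumors gave 0 to 7, and without KO_IgG replicate 4 edgeR called 10 and DESeq2 485. For KO_gdTCR against KO_IgG, DESeq2 called 1033, leaving out single tumors gave 0 to 2357, the highest without KO_IgG replicate 4, and without that tumor edgeR called 2379 and DESeq2 2875. In the pooled comparison edgeR called 1, DESeq2 70 and the experiment as a term 1, leaving out single tumors gave 0 to 23, the highest without IgG replicate 3, and DESeq2 called 83 without KO_IgG replicate 4. Members called in the knockout numbered 1 by DESeq2, with and without KO_IgG replicate 4, where 0.507% and 0.703% of all genes were called lower. For KO_gdTCR they numbered 3 by DESeq2, beside 6.27% of all genes. They numbered 0 to 3 when single tumors were left out, with 3 only without KO_IgG replicate 4, where limma called 14.3% of genes. Without that tumor they numbered 3 by edgeR (14.4% of genes) and 4 by DESeq2 (17.4%), and treatment and library differences coincide in these fits.

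Signs changed for small values. C1qa under anti-IL-38 ranged from -0.0444 to 0.22 when single tumors were left out, and C1qc from -0.0844 to 0.07, with -0.00212 under quantile normalization and -0.00294 in edgeR. C1qa in KO_gdTCR was -0.0884 under quantile normalization and -0.0105 in edgeR, ranged from -0.0861 to 0.14 when single tumors were left out, and without KO_IgG replicate 4 was -0.12 in edgeR and -0.0870 in DESeq2. In the pooled comparison C1qa ranged from -0.0560 to 0.0763, and without KO_IgG replicate 4 it was 0.0513 in edgeR and 0.0444 in DESeq2, and Maf 0.0283 and 0.0204. The cause was not tested.

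Except for Mrc1 and Cd163, the correlations listed here passed over all libraries and did not pass after adjustment in the settings given. Values over all libraries include the split into 5 and 18, so they serve here only as a point of comparison. That of Mrc1 and Cd163 passed in no setting, and its sign changed. In the neutralization experiment r was 0.401 for C1qa and C1qb, 0.422 for C1qb and C1qc, 0.591 for C1q and Csf1r, 0.553 for C1q and Adgre1, -0.374 for Csf1 and Csf1r and 0.427 for Maf and Mrc1. Among the 7 tumors of the genotype comparison it was 0.502 for C1qa and C1qb, 0.676 for C1qa and C1qc, 0.804 for C1qb and C1qc and 0.521 for Maf and Mrc1. In the 18 libraries it was 0.447 for Maf and Mrc1, and without 2 of them 0.454 for C1qb and C1qc. Csf1 and Csf1r had -0.367 in the γδ experiment and -0.0538 with group means removed. Mrc1 and Cd163 had 0.000362 without the 2 farthest libraries, 0.0795 and 0.183 within the experiments, 0.145 in 18 and 0.00113 in 16 libraries, 0.789 in the genotype comparison and 0.359 with group means removed, each of the opposite sign to the value over all libraries. The cause was not tested.

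Replicate numbers of the labels were not used to pair the tumors in the reported fits. Deviations of same-numbered tumors correlated at 0.0229 to 0.0746 between KO_IgG and WT_IgG, -0.169 to 0.0249 between KO_gdTCR and KO_IgG and -0.112 to 0.0684 between anti-IL-38 and IgG. Tumors with other numbers correlated at -0.165 to 0.146, -0.240 to 0.192 and -0.142 to 0.212, in the same order. With so few tumors these values cannot show whether tumors were paired. The replicate block called 0 members in each comparison. Depth limits Cd163, at 2 to 94 reads per library, more than the other members, at 103 or more.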
